A study of Mus musculus with 8 samples.

Results

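The colony-stimulating factor axis of tumor-associated macrophages (TAMs) was followed here through 7 genes. These were the ligand gene Csf1, the receptor genes Csf1r, Csf2ra, Csf2rb and Csf3r, and the genes of 2 lineage transcription factors, Spi1 and Cebpa. They were taken by name from a table of whole-number RNA-seq counts for 23413 gene symbols. All 7 were found, Spi1 under its older symbol Sfpi1, and all 7 passed the filter on low counts in each comparison. TAMs came from male C57BL/6 mice, 8 to 10 weeks old, that carried subcutaneous tumors of B16F10, a mouse melanoma line. Doses fell on days 6 and 12 of tumor growth, and on day 18 the CD45+F4/80+CD11b+Gr-1- fraction was sorted mouse by mouse. The vehicle DMSO went to 2 mice, while thiostrepton, a thiopeptide antibiotic, went to 4 mice by intraperitoneal injection (I.P.) and to 2 by subcutaneous injection beside the tumor (S.C.). By S.C. 20 mg/kg was given. The labels of the S.C. mice, which they call IS, give the site of injection, and the compound is taken from the study's text. Neither the dose given I.P. nor the route of the DMSO injections is named there for the sequenced mice. The comparisons ask whether thiostrepton, by either route, came with another level of these transcripts in TAMs.

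CSF-1, also called M-CSF, binds a receptor tyrosine kinase encoded by Csf1r and is needed for the survival and growth of most macrophages. GM-CSF binds an alpha chain encoded by Csf2ra, which signals together with the common beta chain encoded by Csf2rb, shared with the receptors for IL-3 and IL-5, while G-CSF binds the receptor encoded by Csf3r, known best from neutrophils. PU.1, the product of Spi1, and C/EBPα, the product of Cebpa, are transcription factors of the myeloid lineage that control receptor genes of this axis, and in tumors CSF-1 is known as a factor that draws and maintains macrophages.

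Of the 7 members 0 met the criterion for a differentially expressed gene (DEG), defined by an unadjusted P under 0.05 and a 2-fold or larger change, by either route. Among all genes tested 2% met it by I.P. and 5.06% by S.C. Csf1r and Spi1 were the most abundant members per kilobase of exon, and Csf1 was the least abundant in the DMSO mice. In the S.C. mice Csf1, Csf2ra and Csf2rb, 3 of 7 members, lay above both DMSO mice, beside 34.3% of all genes whose S.C. and DMSO mice did not overlap. In the I.P. mice 0 of 7 members stood wholly on one side of the DMSO mice, beside 14.1% of all genes. S.C. mice 1 and 2 lay more than 2-fold apart for Csf1, Csf1r, Csf3r and Cebpa. The share of all genes this far apart was not counted, so this is a description and no trait of the members.

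The mouse has a second beta chain gene, Csf2rb2, which lies beside Csf2rb on chromosome 15 and encodes a chain used by the IL-3 receptor. The likeness of the coding sequences bears on how well reads of the pair can be told apart. The exons span 5228 bases in Csf2rb and 4740 in Csf2rb2, and those outside the coding sequence were not compared. Over 2628 aligned coding bases of the GENCODE vM21 transcripts, 2503 were identical (95.2%). The longest identical run was 242 bases, and 542 of 2333 ungapped windows of 60 aligned bases (23.2%) held no mismatch. The window that differed most, by 13 bases, is shown because among these coding windows it tells the genes apart best. It covers coding bases 304 to 363 of Csf2rb and 307 to 366 of Csf2rb2, and capitals mark the bases that differ.
Csf2rb: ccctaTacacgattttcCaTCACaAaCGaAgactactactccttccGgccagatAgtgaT
Csf2rb2: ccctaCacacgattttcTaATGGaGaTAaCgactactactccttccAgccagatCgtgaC
How the authors' counting shared reads between the genes is not given in the sources used here, so the counts of both are uncertain to that extent.

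Promoters of 4 of the 7 members (Csf1, Csf2ra, Csf3r and Cebpa) were matched in a RefSeq table on GRCm38.p6 that spans 250 bases before to 50 bases after each start. Those of Csf2ra and Csf3r are shown because they hold the letters GAGGAA, a core recognised by PU.1, and Spi1 is itself a member. Capitals mark this core, which was searched on both strands.
Csf2ra, chr19:61228369-61228668, minus strand: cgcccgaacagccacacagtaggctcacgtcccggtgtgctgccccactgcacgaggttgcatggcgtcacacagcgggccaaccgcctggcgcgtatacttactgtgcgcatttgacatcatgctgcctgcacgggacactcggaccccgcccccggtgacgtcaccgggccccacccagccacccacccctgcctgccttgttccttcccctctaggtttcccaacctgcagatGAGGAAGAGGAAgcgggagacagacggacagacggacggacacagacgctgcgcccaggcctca
Csf3r, chr4:126024409-126024708, plus strand: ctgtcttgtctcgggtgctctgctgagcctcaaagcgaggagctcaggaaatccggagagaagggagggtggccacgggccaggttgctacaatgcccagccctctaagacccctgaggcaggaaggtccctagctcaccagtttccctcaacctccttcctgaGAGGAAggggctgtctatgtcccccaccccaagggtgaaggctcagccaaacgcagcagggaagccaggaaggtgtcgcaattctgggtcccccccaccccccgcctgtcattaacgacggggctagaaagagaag
The core stood 14 and 8 bases before the start of Csf2ra, as 2 copies side by side, and 86 bases before that of Csf3r. It was found in 28.3% of all 32851 promoters of the table. Neither TTGCNNAA, a C/EBP motif (10.8% of promoters), nor TGANTCA, an AP-1 motif (7.81%), was found in any of the 4. A match to the NF-kB consensus (4.51% of promoters) was found in that of Csf1 alone, 154 bases before the start. These are matches of letters, and binding was not measured.

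The libraries held 14127506 to 17577466 counts, and levels are given as CPM, counts set to a common library size with edgeR's TMM scaling. A floor of 3 counts is 0.171 to 0.212 CPM per library and covers counting error only. The members held 46 to 15488 counts per library, so all stood above it. The sort label was checked by 12 macrophage markers, all found, whose summed level ran from 27900 to 31500 CPM under DMSO, from 27600 to 35400 CPM under I.P. and from 38900 to 41000 CPM under S.C. dosing. Markers of other cells were present: 14 neutrophil markers found of 15 summed to 131 to 175, 79.8 to 151 and 274 to 471 CPM in the same order, 6 melanocyte markers to 583 to 643, 430 to 1650 and 680 to 2960 CPM, and 8 monocyte markers to 1150 to 2220, 662 to 876 and 453 to 859 CPM. Markers of dendritic cells, eosinophils and mast cells, T and NK cells, B cells, and fibroblasts and endothelium summed to at most 41.8 CPM per list in any mouse. Both S.C. mice stood above all others for T and NK (41.8 and 22.4 CPM against at most 16.7), B (15.1 and 5.82 against 1.08) and dendritic markers (30.6 and 9.46 against 8.28). In these lists 3 of 9, 2 of 4 and 1 of 7 markers were above the floor in both S.C. mice. The other 2 lists overlapped. The part of other cells in the results below was not tested. Libraries also differed in the balance of long and short genes, a measure chosen after values had been seen. Over 7910 genes, the median log2 deviation of genes with the longest exons (above 4.7 kb) minus that of genes with the shortest (below 1.98 kb) was -0.58 in S.C. mouse 1 and 0.41 in S.C. mouse 2. It was 0.15 and -0.01 in DMSO mice 1 and 2, and -0.24, 0.05, -0.04 and 0.43 in I.P. mice 1 to 4. The S.C. mice thus stood at the low and near the high end of this measure.

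Levels per kilobase of exon put Spi1 and Csf1r first in the DMSO mice, at 154 ± 6.27 and 153 ± 4.98 CPM per kb (mean ± SD, n = 2). Their ranges overlapped, 150 to 159 against 150 to 157 CPM per kb. Csf2ra came next at 87.1 ± 22 CPM per kb, with no overlap with either. Csf2rb and Csf3r, at 11.8 ± 1.06 and 11.5 ± 6.19 CPM per kb, overlapped each other and lay below Csf2ra in every mouse. Cebpa, at 2.49 ± 1.44 CPM per kb, and Csf1, at 0.99 ± 0.144 CPM per kb, came last and did not overlap there. Under I.P. dosing Csf1r ran from 103 to 162 and Csf2ra from 91.9 to 114 CPM per kb, so that these neighbours overlapped. In the S.C. mice Csf1r ran from 72.2 to 231 CPM per kb, on both sides of Spi1 (154 to 175) and of Csf2ra (124 in both mice). Cebpa and Csf1 overlapped in both thiostrepton groups, at 2.21 to 5.85 against 0.593 to 5.51 CPM per kb in the I.P. mice and 1.93 to 6.33 against 1.11 to 4.07 CPM per kb in the S.C. mice.

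The ligand gene Csf1 (GRCm38, chr3:107741048-107760469, minus strand, 4720 exon bases) stood at 5.16 and 4.19 CPM in the DMSO mice, at 26.0, 2.80, 2.88 and 18.3 CPM in I.P. mice 1 to 4, and at 5.25 and 19.2 CPM in S.C. mice 1 and 2. I.P. mice 1 and 4 and S.C. mouse 2 were high, while I.P. mice 2 and 3 lay below both DMSO mice, so the I.P. and DMSO groups overlapped. The I.P. mean was 12.5 ± 11.6 CPM (SD, n = 4) against 4.67 ± 0.681 CPM (n = 2), a log2 fold change of 1.40 (SE 0.92, edgeR adjusted p = 0.98). For S.C. the log2 fold change was 1.37 (SE 0.81, edgeR adjusted p = 1), with S.C. mouse 1 only just above the higher DMSO mouse. Between routes it was -0.03 (95% interval -2.27 to 2.21), which leaves a wide range for a difference. In sorted bulk RNA, fewer cells of a type and less RNA per cell cannot be told apart, for Csf1 and for every gene below.

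Csf1r, the receptor for CSF-1 and a defining transcript of macrophages, had its highest and lowest levels in the same group. It stood at 767 and 732 CPM in the DMSO mice, at 505, 633, 668 and 790 CPM in I.P. mice 1 to 4, and at 353 and 1130 CPM in S.C. mice 1 and 2. Of the I.P. mice 3 lay below and 1 above both DMSO mice, and the S.C. mice lay on either side of all other mice. The log2 fold change was -0.21 for I.P. (SE 0.24, 95% interval -0.76 to 0.34, edgeR adjusted p = 0.98) and -0.04 for S.C. (SE 0.56, 95% interval -1.44 to 1.36, edgeR adjusted p = 1). The I.P. interval excludes a 2-fold change in either direction and the S.C. interval does not. The gene lies on chr18:61100598-61132149 (plus strand, 4885 exon bases), and 873 of its exon bases overlap Hmgxb3 on the other strand. Whether the counting used strand is not stated, so reads there cannot be assigned with certainty. The order of the S.C. mice was the same in the measure of exon length, with S.C. mouse 1 lowest in both, and the part of exon length in the level of Csf1r was not tested.

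**Figure D1:**
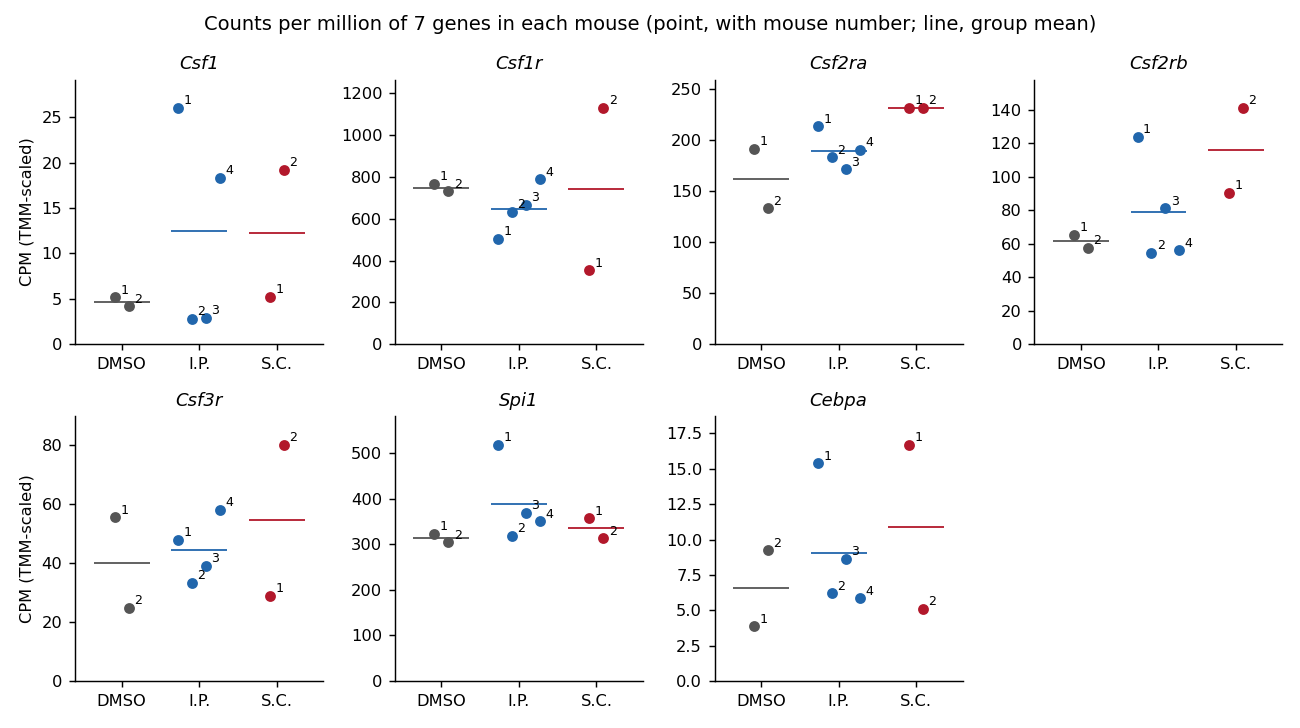
Level of each of the 7 members (CPM, TMM-scaled, linear axes from 0) in each mouse of the DMSO, I.P. and S.C. groups. Points are mice with their numbers and lines are group means. Csf1r spans 353 to 1130 CPM between the S.C. mice, and Csf2ra stands at 231 CPM in both.

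Csf2ra (chr19:61223957-61228429, minus strand, 1860 exon bases), the binding chain of the GM-CSF receptor, stood at 191 and 133 CPM in the DMSO mice, at 213, 183, 171 and 190 CPM in I.P. mice 1 to 4, and at 231 CPM in both S.C. mice. It was the member with the closest S.C. pair, 231 ± 0.204 CPM (SD, n = 2), and these mice lay above all 6 others. For S.C. the log2 fold change was 0.49 (SE 0.32, edgeR adjusted p = 1) over DMSO and 0.29 (SE 0.23, edgeR adjusted p = 0.813) over I.P. In the I.P. mice, 189 ± 17.5 CPM, it was 0.22 over DMSO (SE 0.23, 95% interval -0.31 to 0.74, edgeR adjusted p = 0.98). The DMSO mice were further apart (162 ± 41 CPM, SD, n = 2) than either thiostrepton group, and this spread enters both comparisons with them.

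Csf2rb (chr15:78325752-78353847, plus strand, 5228 exon bases), the signalling chain shared by the receptors for GM-CSF, IL-3 and IL-5, came closest to the criterion. It stood at 65.4 and 57.6 CPM in the DMSO mice, at 124, 54.4, 81.2 and 56.1 CPM in I.P. mice 1 to 4, and at 90.5 and 141 CPM in S.C. mice 1 and 2. Both S.C. mice were above both DMSO mice, while of the I.P. mice 2 were above and 2 below. The S.C. mean of 116 ± 35.7 CPM (SD, n = 2) was 1.85-fold the DMSO mean in the edgeR fit, a log2 fold change of 0.89 (SE 0.36, 95% interval 0.00 to 1.78, adjusted p = 0.923). Its unadjusted P did not fall under 0.05 in this fit and its change was short of 2-fold. The P was under 0.05 by DESeq2 (0.0301) and by the edgeR likelihood ratio test (0.0401). With the edgeR quasi-likelihood test it was 0.0441 without a filter and 0.0463 with RLE size factors. It was not under 0.05 with the 1 CPM threshold, library size only, all 3 groups in 1 fit or a replicate block. The other log2 fold changes were 0.35 for I.P. over DMSO (SE 0.35, edgeR adjusted p = 0.98) and 0.56 for S.C. over I.P. (SE 0.39, edgeR adjusted p = 0.78). With the counts of Csf2rb and Csf2rb2 summed, the S.C. value over DMSO was 0.88 (adjusted p = 0.82), with an unadjusted P under 0.05 and a change still short of 2-fold. The share of Csf2rb2 in the summed counts was 11.7% and 17.2% in the DMSO mice, 23.8%, 15.1%, 14.4% and 18.8% in I.P. mice 1 to 4, and 27.4% and 2.52% in S.C. mice 1 and 2. The S.C. mice thus held the highest and the lowest share of the 8.

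Csf3r (chr4:126024550-126044440, plus strand, 3506 exon bases), the G-CSF receptor, stood at 55.5 and 24.8 CPM in the DMSO mice, at 48.0, 33.3, 39.1 and 58.1 CPM in I.P. mice 1 to 4, and at 29.0 and 80.2 CPM in S.C. mice 1 and 2. All groups overlapped, and the DMSO mice alone spread over more than 2-fold. Log2 fold changes were 0.15 for I.P. (SE 0.36, edgeR adjusted p = 0.986), 0.42 for S.C. (SE 0.64, edgeR adjusted p = 1) and 0.29 for S.C. over I.P. (SE 0.43, edgeR adjusted p = 0.906). Neutrophils, which the Gr-1- gate of the sort should remove, express this receptor strongly, and their marker sum is given by mouse. It was 131 and 175 CPM in the DMSO mice, 151, 117, 112 and 79.8 CPM in I.P. mice 1 to 4, and 274 and 471 CPM in S.C. mice 1 and 2. S.C. mouse 2 was highest in that sum and in Csf3r, while I.P. mouse 4, lowest in the sum, was second highest in Csf3r. In every mouse except S.C. mouse 2, most of the sum came from Cxcr2 and Mmp8. Cxcr2 ran from 22.3 CPM in I.P. mouse 4 to 171 CPM in S.C. mouse 1. Mmp8 ran from 24.2 CPM in I.P. mouse 1 to 120 CPM in S.C. mouse 2. The place of I.P. mouse 4 in the sum thus rests largely on Cxcr2. Of the 14 markers 13 were above the floor in both S.C. mice and 7 in both DMSO mice, and the part of neutrophil RNA in Csf3r was not tested.

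Among the lineage factors, Spi1 (chr2:91082390-91115756, plus strand, 2034 exon bases) varied little apart from 1 mouse. It stood at 323 and 305 CPM in the DMSO mice, at 519, 319, 369 and 351 CPM in I.P. mice 1 to 4, and at 357 and 313 CPM in S.C. mice 1 and 2. I.P. mouse 1 was high and the other 7 mice lay between 305 and 369 CPM. Its log2 fold change was 0.30 for I.P. (SE 0.25, 95% interval -0.27 to 0.88, adjusted p = 0.98), 0.07 for S.C. (SE 0.29, 95% interval -0.64 to 0.78, adjusted p = 1) and -0.22 for S.C. over I.P. (SE 0.27, 95% interval -0.84 to 0.41, adjusted p = 0.884), all by edgeR. Spi1 was the one member whose interval excluded a 2-fold change in all 3 comparisons.

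Cebpa (chr7:35119293-35121928, plus strand, 1 exon of 2636 bases) was low and variable. It stood at 3.87 and 9.24 CPM in the DMSO mice, at 15.4, 6.20, 8.63 and 5.83 CPM in I.P. mice 1 to 4, and at 16.7 and 5.10 CPM in S.C. mice 1 and 2. I.P. mouse 1 and S.C. mouse 1 were high and the groups overlapped throughout. The log2 fold change was 0.45 for I.P. (SE 0.53, edgeR adjusted p = 0.98), 0.70 for S.C. (SE 0.84, edgeR adjusted p = 1) and 0.27 for S.C. over I.P. (SE 0.63, edgeR adjusted p = 0.954). An antisense gene, Gm45091, shares 51 of its exon bases and was not analysed here.

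**Figure D2:**
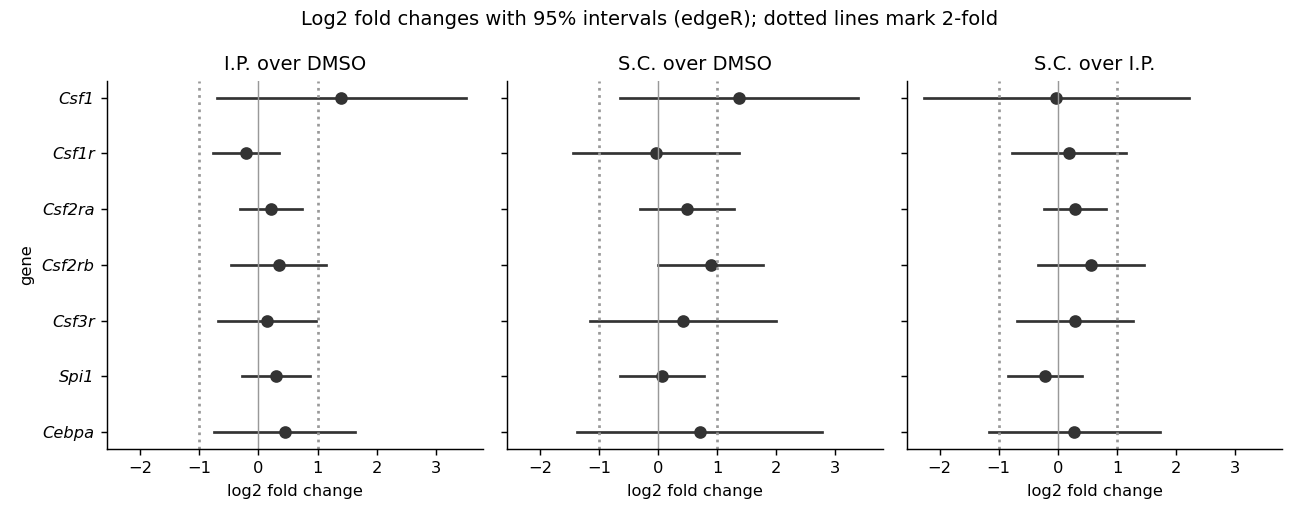
Log2 fold change of each member with its 95% interval from edgeR, for I.P. over DMSO, S.C. over DMSO and S.C. over I.P. Dotted lines mark a 2-fold change, and only Spi1 has its interval inside them in all 3 panels.

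Over the members, 0 of 7 met the DEG criterion in S.C. over I.P. as well, where 7.05% of 12206 genes did. The shares given above for I.P. and S.C. over DMSO are of 12174 and 11680 genes. At an unadjusted P under 0.05 alone the edgeR count was also 0 of 7 each time, beside 3.43%, 5.41% and 8.59% of all genes. By DESeq2 0 members met the full criterion. Csf2rb in S.C. over DMSO had an unadjusted DESeq2 P of 0.0301, with a log2 fold change of 0.91, short of 2-fold. After Benjamini-Hochberg adjustment over all genes 0% of genes passed 0.05 in any comparison. The S.C. and I.P. mice did not overlap for 1 member, Csf2ra, beside 18.5% of all genes. The median log2 fold change of the members was 0.30, 0.49 and 0.27, and that of all genes was 0.02 each time. Both routes were set against the same 2 DMSO mice, so these medians are not independent. The 95% interval excluded a 2-fold change for 4 members by I.P. (Csf1r, Csf2ra, Csf3r and Spi1, beside 41.6% of all genes), 1 by S.C. (Spi1, beside 9.6%) and 2 between routes (Csf2ra and Spi1, beside 20.9%). An exact rank-sum test of a single gene cannot give a two-sided p below 0.133 with 4 mice against 2 or 0.333 with 2 against 2.

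Members differed in their pattern over mice. Over the 8 libraries, Pearson's r of log2 CPM was 0.68 between Csf1 and Csf3r, 0.67 between Csf2ra and Csf2rb and -0.82 between Csf1r and Cebpa, all descriptions of 8 points that share library, depth and exon-length balance. Compared with 7936 other genes of at least 10 CPM, the genes most like Csf1r were Gm14325 (0.99), Naa25 (0.98) and Zmym2 (0.98). For Csf2rb they were Socs3 (0.97), Arid4a (0.96) and 1300002E11Rik (0.96), and for Csf1 Ssfa2 (0.97), Sptan1 (0.94) and Pik3r6 (0.94). Csf2ra went with Nucb1 (0.97), Ramp1 (0.95) and Tspan13 (0.95), Csf3r with Skil (0.97) and Topors (0.96), and Spi1 with Phkg2 (0.99), Ogfrl1 (0.97) and Diap1 (0.97). Cebpa was under 10 CPM on average and was not compared.

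Of 9 further genes of the axis (ligands, receptor chains and the protease gene Adam17), most ligands were hardly detected. Csf3, which encodes G-CSF (chr11:98701263-98703629, plus strand), was the exception. In DMSO mice 1 and 2 it had 0 and 2 counts, with 25, 1, 2 and 0 in I.P. mice 1 to 4, and 83 and 36 in S.C. mice 1 and 2. Both S.C. mice were above all others, while 1 of 4 I.P. mice was above the floor. The summed counts, 119 by S.C. against 2 in DMSO, give a ratio of 66.9 per scaled count (exact 95% counting interval 18.1 to 559). This interval pools the reads of each group, leaves out the variation between mice and is no bound on a difference. The edgeR log2 fold change was 5.89 (SE 1.59). Csf3 passed the filter on low counts through the S.C. mice alone and was not tested in I.P. over DMSO, so a difference was built into its test, and its fold change and its place among the DEGs are given as a description. The fold change was 5.02 without DMSO mouse 1 and 8.88 without DMSO mouse 2, and Csf3 was not called in either case. Csf2, which encodes GM-CSF, had 14 counts in S.C. mouse 2 and 0 or 1 in each of the other 7 mice. Il34, the other ligand of the CSF-1 receptor, and Il5 had 1 count each over the 8 libraries together, and Il3 had 0.

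The remaining receptor chains and Adam17 did not meet the criterion in any comparison. Csf2rb2 stood at 8.68 and 11.9 CPM in the DMSO mice, at 38.6, 9.67, 13.6 and 13 CPM in I.P. mice 1 to 4, and at 34.1 and 3.64 CPM in S.C. mice 1 and 2. I.P. mouse 1 and S.C. mouse 1 were high and S.C. mouse 2 was lowest of all, where Csf2rb was highest. Il3ra, the IL-3 receptor alpha chain, ran from 1.53 to 6.66 CPM and Il5ra, its IL-5 counterpart, from 0.336 to 1.40 CPM. Adam17, the protease that sheds CSF-1 and its receptor from the cell surface, stood at 205 and 151 CPM in the DMSO mice, at 47.3, 137, 145 and 194 CPM in I.P. mice 1 to 4, and at 54.6 and 330 CPM in S.C. mice 1 and 2. Its low mice, I.P. mouse 1 and S.C. mouse 1, were also the lowest in Csf1r. Of these 4 genes 0 met the criterion by I.P., by S.C. or between routes, beside 2%, 5.06% and 7.05% of all genes. The counts were 0 also at an edgeR P under 0.05 alone, and for the full criterion with DESeq2.

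**Figure D3:**
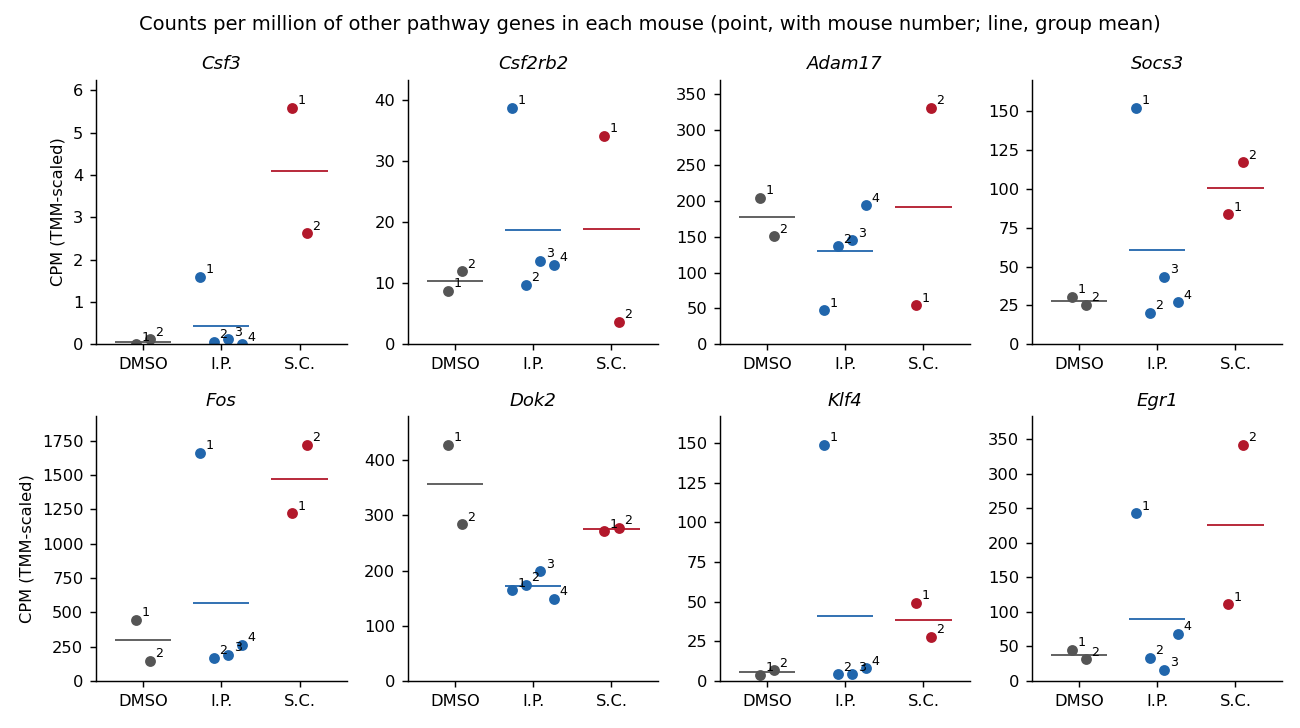
Level of 8 other genes of the axis (CPM, TMM-scaled, linear axes from 0) in each mouse, with mouse numbers and group means as lines. Csf3 is highest in both S.C. mice, at 5.58 and 2.62 CPM, and Dok2 is lower in each of the 4 I.P. mice than in both DMSO mice.

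Signalling proteins close to the receptors were described from a list of 27 genes. By I.P. 1 of 27 tested met the criterion, in the downward direction, and by S.C. 1 of 26, upward, beside 2% and 5.06% of all genes in either direction. The median log2 fold change was 0.05 and 0.06. Dok2, an adaptor that restrains myeloid cytokine signalling, stood at 428 and 284 CPM in the DMSO mice, at 164, 174, 199 and 149 CPM in I.P. mice 1 to 4, and at 271 and 278 CPM in S.C. mice 1 and 2. It fell by I.P. in 4 of 4 mice, with a log2 fold change of -1.06 (SE 0.24, edgeR adjusted p = 0.98), and the call was lost without DMSO mouse 1 (-0.73) and without I.P. mouse 4, in both cases because the change was then under 2-fold. Socs3, an inhibitor induced by G-CSF and other cytokines, stood at 30.7 and 25.2 CPM in the DMSO mice, at 152, 20.4, 43.2 and 27.0 CPM in I.P. mice 1 to 4, and at 83.7 and 117 CPM in S.C. mice 1 and 2. It rose by S.C. in 2 of 2 mice (log2 fold change 1.82, SE 0.36, edgeR adjusted p = 0.747), and the call was lost with all 3 groups in 1 fit, at a fold change of 1.85. Among the I.P. mice the first stood apart. Gab2, a docking protein of these receptors, stood at 29.8 and 30.5 CPM in the DMSO mice, at 34.7 to 64.5 CPM in the I.P. mice, and at 4.04 and 78.3 CPM in S.C. mice 1 and 2. For Gab2 the I.P. log2 fold change was 0.64 (SE 0.30, edgeR adjusted p = 0.98), which did not pass. Between routes 2 of 27 genes of this list, 1 of them without a count in the S.C. mice, and 1 of 17 transcription factors met the criterion, beside 7.05% of all genes.

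Of 20 myeloid transcription factors 17 were tested. By S.C. 4 met the criterion, Klf4, Egr1, Egr2 and Fos, all upward, beside 5.06% of all genes in either direction. The list had a median log2 fold change of 0.31 by I.P. and 0.35 by S.C. beside 0.02 for all genes. Klf4, a factor of monocyte differentiation, stood at 3.93 and 6.72 CPM in the DMSO mice, at 149, 4.13, 4.06 and 7.88 CPM in I.P. mice 1 to 4, and at 49.4 and 27.7 CPM in S.C. mice 1 and 2. I.P. mouse 1 was above both S.C. mice, while I.P. mice 2 to 4 stood near the DMSO mice. The S.C. log2 fold change of Klf4 was 2.82 (SE 0.55, edgeR adjusted p = 0.747), and the call was lost with all 3 groups in 1 fit, at 2.85.

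The immediate early factors Egr1, Egr2 and Fos, named for meeting the criterion in this comparison, were higher in both S.C. mice than in both DMSO mice. Of the 17 factors tested 9 did not overlap between these groups, 7 above and 2 below, beside 34.3% of all genes. Egr1, a target of CSF-1 receptor signalling, stood at 44.8 and 31.1 CPM in the DMSO mice, at 243, 33.6, 16.2 and 68.3 CPM in I.P. mice 1 to 4, and at 111 and 342 CPM in S.C. mice 1 and 2 (S.C. log2 fold change 2.56, SE 0.61, edgeR adjusted p = 0.747). The fold change was 1.49 without S.C. mouse 2 and 3.15 without S.C. mouse 1, and Egr1 met the criterion in both cases. Fos, a subunit of AP-1, stood at 444 and 148 CPM in the DMSO mice, at 1660, 169, 189 and 264 CPM in I.P. mice 1 to 4, and at 1220 and 1720 CPM in S.C. mice 1 and 2. Its S.C. log2 fold change was 2.29 (SE 0.58, edgeR adjusted p = 0.747), with 3.28 without DMSO mouse 1 and 1.70 without DMSO mouse 2, both past the criterion. With all 3 groups in 1 fit the call of Fos was lost, at 2.31. For Egr1 and Fos I.P. mouse 1 lay between the S.C. mice, and the other I.P. mice lay below both. Egr2 stood at 68.7 and 41.9 CPM in the DMSO mice, at 100, 48.8, 41.0 and 87.5 CPM in I.P. mice 1 to 4, and at 84.8 and 288 CPM in S.C. mice 1 and 2. Its S.C. log2 fold change of 1.73 (SE 0.64, edgeR adjusted p = 0.873) lost the call without DMSO mouse 2 (1.41) or S.C. mouse 2 (0.56), and was 2.36 without S.C. mouse 1.

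**Figure D4:**
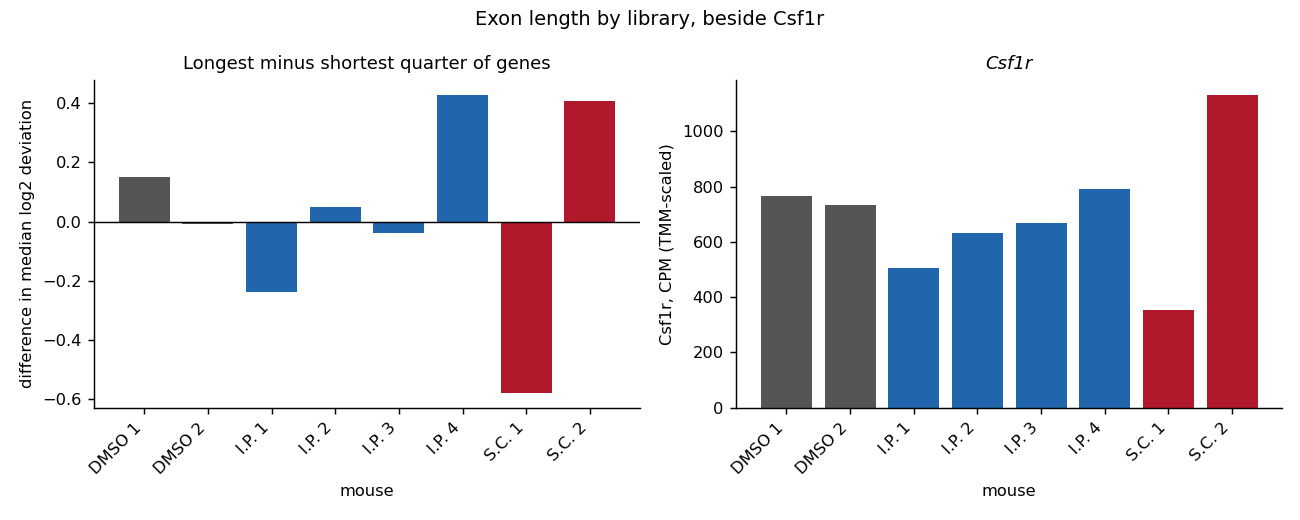
Left, median log2 deviation of the genes with the longest exons minus that of the genes with the shortest, by mouse. Right, Csf1r (CPM, TMM-scaled, bars from 0) in the same mice. S.C. mouse 1 is lowest in both panels, at -0.58 and 353 CPM, and S.C. mouse 2 stands at 0.41 and 1130 CPM.

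Which members met the criterion by S.C. changed when 1 mouse was left out. Without S.C. mouse 1, Csf1 (log2 fold change 2.01, edgeR adjusted p = 0.00387) and Csf2rb (1.17, edgeR adjusted p = 0.0249) met the criterion over DMSO. Without S.C. mouse 2, Csf1r (-1.15, edgeR adjusted p = 0.0704) and Cebpa (1.28, edgeR adjusted p = 0.0723) did. These fits set 1 mouse against 2 and take the lone mouse to vary as the DMSO mice did, and over all genes they called 2989 and 3432 DEGs against 591 with both S.C. mice. The members called differed between the fits, and no member was called in both.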

How the data were processed

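RNA of TAMs sorted from 8 mice was used, from 2 DMSO, 4 I.P. and 2 S.C. mice as grouped by the sample labels. The authors deposited whole-number counts per gene without normalization, made from KAPA mRNA HyperPrep libraries on mm10. The study's methods name bowtie2 and RSEM, while the submitters' processing notes name TopHat2 and edgeR, and the strand setting of the counting is not given in the sources used here. Other experiments of the study were not analysed here.

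Fits were made with edgeR 4.0.16 in R 4.3.3. Genes passing filterByExpr (minimum count 10, minimum total count 15) were scaled by TMM, and each pair of groups was fitted alone. Groups were compared by a quasi-likelihood test, two-sided, with Benjamini-Hochberg adjustment over all genes tested. A DEG needed an unadjusted P under 0.05 together with a 2-fold or larger change, as in the study's methods. Log2 CPM used a prior count of 2. Depth was 14127506 to 17577466 counts per library, which puts the floor of 3 counts at 0.171 to 0.212 CPM.

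Members, gene lists and tests were chosen with earlier results of these data known. Named genes were the 7 members and 9 further genes (ligands, receptor chains and Adam17). To these came DEGs of 2 other lists (or the smallest P, up to 3 genes) and the 3 genes of highest correlation with each member. Some genes that this rule names are not reported here. Positions and exon lengths came from GENCODE vM21 on GRCm38, where 23074 of 23413 symbols (98.6%) were matched. The alternatives tried were no filter on genes, a threshold of 1 CPM in 2 libraries, RLE size factors, library size only, the likelihood ratio test, DESeq2 1.42.0, all 3 groups in 1 fit, a replicate block, Csf2rb summed with Csf2rb2, and leaving out each mouse. The procedure was tested on simulated data.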

Additional observations from a re-analysis of the deposited data

Results flagged for a closer look

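The S.C. and I.P. mice differed in route and, by the study's text, in dose. Between them 3 of 27 signalling genes and 1 of 17 transcription factors had an edgeR P under 0.05. That is 9.09% of the 44 genes beside 8.59% of all genes. This share is near the background and is no result about these lists. In the edgeR quasi-likelihood fit 0 of the 4 genes passed after Benjamini-Hochberg adjustment. By DESeq2 Cish passed (adjusted p = 0.0214), while Egr2 (0.192) and Src (0.217) did not. Cish and Src were named after their values were seen. Cish, an inhibitor induced by STAT5, stood at 4.61 and 5.28 CPM in the DMSO mice, at 0.382, 1.03, 3.84 and 1.46 CPM in I.P. mice 1 to 4, and at 7.06 and 26.7 CPM in S.C. mice 1 and 2. All 4 I.P. mice lay below and both S.C. mice above the DMSO mice, and the log2 fold change between routes was 3.32 (SE 0.88, edgeR adjusted p = 0.329). The value was 4.09 without I.P. mouse 3, 3.98 without S.C. mouse 1, and 2.06 without S.C. mouse 2, where the call was lost, and it was 4.44 with a replicate block, where the call was kept.

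Dok2 was 0.68 higher on the log2 scale in S.C. than in I.P. mice (SE 0.23, edgeR adjusted p = 0.46), with 2 of 2 S.C. mice above all I.P. mice. For Egr2 the difference was 1.42 (SE 0.52, edgeR adjusted p = 0.492), the groups overlapped, and the value was 0.28 without S.C. mouse 2 and 2.05 without S.C. mouse 1. The call of Egr2 was lost without S.C. mouse 2, I.P. mouse 2 (1.29) or I.P. mouse 3 (1.21), and with a replicate block (1.16). Src, a tyrosine kinase, was counted 3 and 6 times in the DMSO libraries, 28, 6, 8 and 11 in I.P. mice 1 to 4, and 0 in both S.C. mice. It passed the filter on low counts through the I.P. mice alone, so its test supports nothing, and its fitted value of -6.70 rests on the prior count and is no bound. The pooled I.P. counts stood 7.54-fold above a floor of 3 counts over the S.C. group, and 4.65-fold without I.P. mouse 1. That mouse held 28 of the 53 I.P. counts, and without it Src did not pass the filter. These ratios of pooled counts leave out the variation between mice and are no bound on a difference between routes. With a replicate block Src was not called. Among the 7 members the routes differed at such a P for 0, and in the I.P. group of 4 no member had a mouse far enough from the others to exceed Dixon's critical ratio.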

How the results depend on the processing

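Of 283 values of the members' log2 fold changes under alternatives, 261 kept their direction and side of the criterion, 4 passed it and 18 changed sign. The cause of the changes was not tested. Spi1 by S.C. was -0.08 with library size only, a scaling that moved the median of all genes from 0.02 to -0.13. Leaving out each mouse in turn gave, for I.P. over DMSO, -0.02 to 0.50 for Csf2ra, -0.32 to 0.84 for Csf3r and -0.04 to 1.22 for Cebpa. For S.C. over DMSO it gave 0.11 to 2.01 for Csf1, -1.15 to 0.56 for Csf1r, 0.50 to 1.17 for Csf2rb, -0.53 to 1.11 for Csf3r, -0.03 to 0.13 for Spi1 and -0.40 to 1.45 for Cebpa. For S.C. over I.P. it gave -1.25 to 0.62 for Csf1, -0.88 to 0.80 for Csf1r, -0.63 to 0.84 for Csf3r and -0.82 to 0.88 for Cebpa. Members called then numbered 0 to 2 by S.C. and 0 otherwise, and genes of the 3 other lists called numbered 0 to 3 by I.P. (2 with all mice), 5 to 20 by S.C. (6, Csf3 among them) and 2 to 9 between routes (3, Src among them). Without DMSO mouse 1 the I.P. count was 0, without S.C. mouse 1 or 2 the S.C. count was 16 and 20, and without I.P. mouse 1 the count between routes was 9. With I.P. mouse 1 and S.C. mouse 1 left out together, chosen after seeing the data, 1 member was called between routes, Csf2rb (1.13, edgeR adjusted p = 0.0745), and 16 genes of the other lists. Klf4, Socs3 and Fos lost their S.C. call with all 3 groups in 1 fit, at 2.85, 1.85 and 2.31 against 2.82, 1.82 and 2.29. Egr2 lost its S.C. call with library size only (1.58). By DESeq2 the adjusted p in S.C. over DMSO was 0.00162 for Klf4, 0.00192 for Egr1, 0.00348 for Fos and 0.0041 for Socs3. It was 0.0992 for Csf3 and 0.2 for Egr2, and in I.P. over DMSO 0.0521 for Dok2. These genes had been named for their calls in the same data. Over all genes DEGs numbered 116 to 364 by I.P. (243 as reported), 113 to 3432 by S.C. (591) and 391 to 2566 between routes (860), and with DESeq2 19, 107 and 234 genes passed an adjusted p under 0.05 against 0, 0 and 0.

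Deviations of same-numbered mice from their group means had correlations of -0.218 to 0.221 over 7937 genes, highest for I.P. mouse 1 with S.C. mouse 1. In a group of 2 the deviations mirror each other, so these correlations cannot decide whether the numbers mark pairs. The numbers were not taken as pairs, and a replicate block was fitted as an alternative. With a replicate block, S.C. over I.P. was 0.22 for Csf1 and -0.08 for Cebpa, against -0.03 and 0.27. The replicate block left 0 members called in each comparison, ended the calls of Egr2 (1.16) and Src between routes and kept that of Cish (4.44), and DEGs over all genes went from 860 to 391 between routes. Crossing the numbers in S.C. over DMSO, chosen after seeing the data, called 0 members and 475 DEGs against 591. For 6 of 7 members the 95% interval of S.C. over DMSO, with 2 mice in each group, included a 2-fold change.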
